A study of Homo sapiens with 5 samples.

Results

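The miR-29 family was followed through its 7 mature arms, the 3p and 5p products of its hairpins, which are 7 of the 2565 human miRNA rows of the deposited count tables. The members were all rows of miR-29a, miR-29b and miR-29c in those tables: hsa-miR-29a-3p, hsa-miR-29b-3p, hsa-miR-29c-3p, hsa-miR-29a-5p, hsa-miR-29c-5p, hsa-miR-29b-1-5p and hsa-miR-29b-2-5p. Small RNA was sequenced in 5 libraries made from MCF10A cells, which are human breast epithelial cells that divide without limit but form no tumours, and the comparison asks how small RNAs differ when such cells lose their attachment. Cells on uncoated plastic (attached) gave 3 libraries, and cells kept from adhering by a 2% poly-HEMA coating (detached) gave 2. Attached libraries carry a time label of 0 h and detached ones of 24 h, whereas the series' design text puts culture at 24 h in either case, so a difference in time in culture cannot be told apart from attachment. All cells shared 1 line and 1 serum-containing, growth-factor-supplemented medium, and no genetic change was labelled. Whether replicates were separate cultures is not given in the sources used here, so the spread behind each p-value may be technical.

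The miR-29 family is known for repressing extracellular matrix genes, among them collagens, elastin and fibrillin, and is widely described as lowered by TGF-beta signalling in fibrosis. A mature miRNA guides Argonaute proteins to messenger RNAs that pair with its seed, and in this family the 3p arms are the guides while the 5p arms are the passenger strands, usually degraded. Detachment removes an epithelial cell from its matrix. The family is also among the miRNAs described as repressed by the transcription factor MYC.

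The guide sequences are shown because they decide which reads can be told apart. They come from RefSeq on GRCh38.p14, where all 7 members were matched, and are written 5′ to 3′ with the seed, bases 2 to 8, in capitals.
hsa-miR-29a-3p: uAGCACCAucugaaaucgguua
hsa-miR-29b-3p: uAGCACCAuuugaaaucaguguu
hsa-miR-29c-3p: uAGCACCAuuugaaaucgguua
The 3 guides shared the seed AGCACCA with each other and with no other mature human miRNA in the table. Counting from the 5′ end, miR-29a-3p differed from miR-29c-3p by the single substitution C10U. The first 17 bases of miR-29b-3p and miR-29c-3p were the same, and the substitutions between them were A18G, G21U and U22A. How the authors assigned reads that match several of these names is not given in the sources used here, so the split between miR-29a-3p and miR-29c-3p counts is the least certain in the family.

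The 5p arms differed more among themselves, and they separate the loci. They are given in the same form.
hsa-miR-29a-5p: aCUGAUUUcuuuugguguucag
hsa-miR-29c-5p: uGACCGAUuucuccugguguuc
hsa-miR-29b-1-5p: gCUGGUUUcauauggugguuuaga
hsa-miR-29b-2-5p: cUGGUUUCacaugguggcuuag
None of these 4 seeds occurred in another mature human miRNA of the table. The arm of MIR29B1 starts 1 base before that of MIR29B2, and in the positions of miR-29b-1-5p the substitutions between them were U11C and U19C.

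The hairpins show where each arm comes from, with the mature arms in capitals, 5p first.
MIR29A, chr7:130876747-130876810, minus strand: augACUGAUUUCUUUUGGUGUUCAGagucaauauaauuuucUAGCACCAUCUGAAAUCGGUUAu
MIR29B1, chr7:130877459-130877539, minus strand: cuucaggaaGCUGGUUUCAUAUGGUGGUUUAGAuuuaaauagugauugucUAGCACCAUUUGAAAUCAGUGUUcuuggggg
MIR29C, chr1:207801852-207801939, minus strand: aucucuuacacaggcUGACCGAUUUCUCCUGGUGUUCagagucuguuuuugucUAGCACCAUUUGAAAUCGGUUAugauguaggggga
MIR29B2, chr1:207802443-207802523, minus strand: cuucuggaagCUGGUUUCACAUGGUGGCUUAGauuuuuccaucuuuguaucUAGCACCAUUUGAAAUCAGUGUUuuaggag
The miR-29b-3p stretch was identical in MIR29B1 and MIR29B2, so a miR-29b guide read cannot be placed at either locus, whereas a 5p read can. On chromosome 7, 648 bases separate MIR29A from MIR29B1, and on chromosome 1, 503 bases separate MIR29C from MIR29B2. In GENCODE 29, MIR29C and MIR29B2 lie in exon 5 of a transcript of the noncoding RNA MIR29B2CHG. MIR29B1 lies within exon 4 of a transcript of the noncoding RNA LINC-PINT, which MIR29A overlaps by 2 bases, and both also lie in an intron of AC016831.6 on the same strand and of LINC00513 on the opposite strand.

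Human miRNA counts totalled between 8805009 and 15793173 per library. Attached replicate 2 stood apart from the other 4 libraries. Its Spearman correlation with them across the tested human miRNAs was 0.812 to 0.857, against 0.927 to 0.961 among the others. The fold change of each miR-29 arm and the tested shares and ratios are therefore given with and without that library. Ranks by mean level, correlations and fold changes of miRNAs outside the family are given over all libraries only. The same holds for the summed counts of miR-29a-3p and miR-29c-3p. Of the epithelial marker miRNAs, 4 of 4 had counts in every library, with a summed level of 54650 to 98269 CPM (counts per 1000000 human miRNA counts, scaled as described below) in attached and 84771 to 94145 in detached libraries. The fibroblast markers summed to 3.23 to 15.3 in attached and 14.2 to 57.1 in detached libraries with 3 of 4 counted in every library. Blood markers summed to 7.74 to 16.5 and 17.7 to 22.4, with 4 of 6 counted in every library. Muscle markers summed to at most 1.48 and 11.7 with miR-133a-3p at 0 throughout. All marker sums of these other cell types were far below the levels of the family's guides. They were of a size like the rarest arms, miR-29b-1-5p at 5.61 to 97.1 CPM and miR-29b-2-5p at 4.70 to 21.9 CPM. The part of these cell types in the results was not tested.

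The guides were among the most abundant miRNAs of these cells. The CPM are scaled by TMM, which corrects library totals for differences in composition, and all arms are 22 to 24 bases long, so length hardly enters a comparison between arms. How efficiently each arm was ligated and how its reads were assigned was not tested, so ratios between arms are ratios of counts and may not equal ratios of molecules. By mean CPM over the 5 libraries, miR-29a-3p ranked 5th, miR-29b-3p 6th and the guide of MIR29C, miR-29c-3p, 33rd of all human miRNAs. Within attached replicates 1, 2 and 3 and detached replicates 1 and 2, miR-29a-3p ranked 6, 3, 9, 8 and 8. In the same order miR-29b-3p ranked 4, 10, 5, 4 and 5, so miR-29a-3p was the higher only in attached replicate 2.

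For miR-29a-3p, the guide of MIR29A, the level was 30067, 89282 and 19915 CPM in attached replicates 1, 2 and 3 against 22986 and 15265 CPM in detached replicates 1 and 2. The detached libraries lay within or below the range of the attached ones, and the groups overlapped. Attached replicate 2 was 4.05 times the mean of the other 4 libraries, which among themselves spanned a 1.97-fold range. Without TMM, miR-29a-3p took 2.84%, 6.68% and 2.27% of human miRNA counts in the attached libraries and 2.29% and 1.90% in the detached ones. The group means were 46421 ± 37464 CPM (SD, n = 3) attached and 19126 ± 5460 CPM (SD, n = 2) detached. The edgeR log2 fold change, detached over attached, was -1.28 (SE 0.73, 95% interval -2.95 to 0.40, adjusted p = 0.735), and it was -0.38 (SE 0.47, adjusted p = 0.816) without attached replicate 2. Over all libraries but without TMM, the edgeR log2 fold change was -0.91 (SE 0.56, adjusted p = 0.864). The difference was thus within the spread between libraries, and 1 library set most of its size.

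For miR-29b-3p, made from both miR-29b hairpins, the level was 45336, 18710 and 28931 CPM in the attached libraries against 51258 and 26434 CPM in the detached ones. The 2 detached libraries fell on either side of attached replicate 1, and attached replicate 2 was the lowest of all, at 0.493 times the mean of the others. The means were 30992 ± 13432 CPM (SD, n = 3) attached and 38846 ± 17553 CPM (SD, n = 2) detached. The log2 fold change was 0.33 (SE 0.58, 95% interval -0.995 to 1.65, adjusted p = 0.891 by edgeR) and 0.07 without attached replicate 2.

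The least abundant guide was miR-29c-3p, with 5213, 3996 and 2950 CPM in the attached libraries against 5782 and 3768 CPM in the detached ones. Its groups overlapped, and attached replicate 2 lay inside the range of the others. The means were 4053 ± 1133 CPM (SD, n = 3) attached and 4775 ± 1424 CPM (SD, n = 2) detached. The log2 fold change was 0.24 (SE 0.55, 95% interval -1.03 to 1.50, adjusted p = 0.917 by edgeR) and 0.23 without attached replicate 2. Because miR-29a-3p and miR-29c-3p differ by 1 base, their counts were also summed before fitting, which gave -1.24 (SE 0.77, adjusted p = 0.707), a value set by the far more abundant miR-29a-3p.

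**Figure D1:**
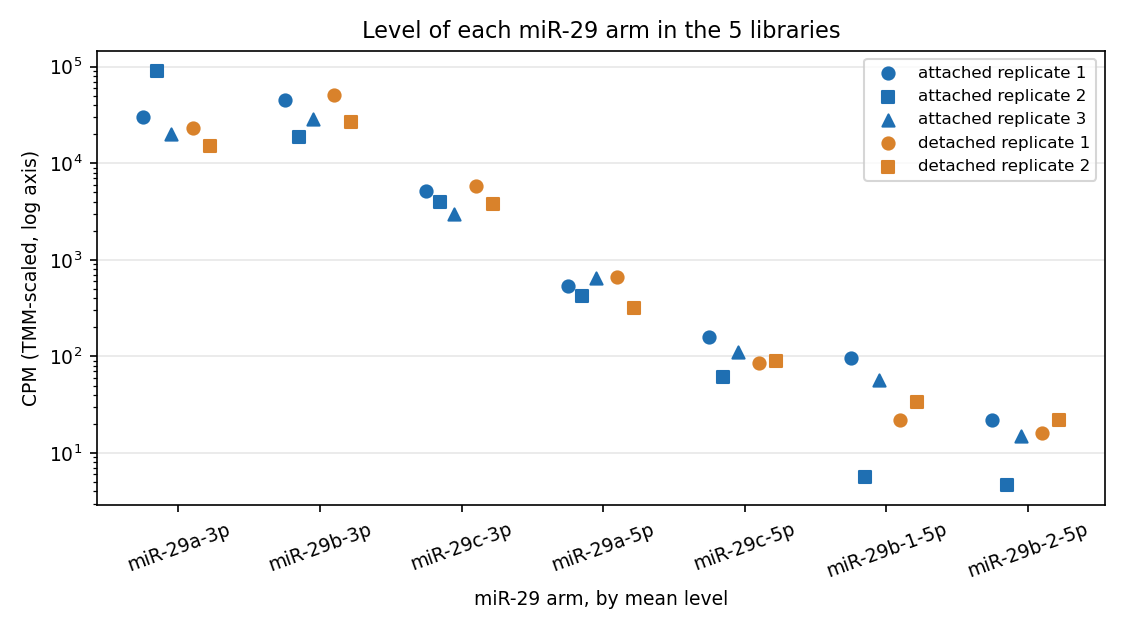
Level of each miR-29 arm in the 5 libraries, in TMM-scaled CPM on a log axis, with arms ordered by mean level and 1 point per library (blue attached, orange detached; shapes give the replicate number). The attached and detached points overlap in every arm, and attached replicate 2 (blue square) is the highest point for miR-29a-3p and the lowest for miR-29b-3p, miR-29c-5p, miR-29b-1-5p and miR-29b-2-5p.

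The 5p arms were far rarer. The passenger strand of MIR29A, miR-29a-5p, ranked 88th with 535, 423 and 645 CPM in the attached libraries against 658 and 316 CPM in the detached ones. Detached replicates 1 and 2 held its highest and lowest values, so the spread within that group covered the whole attached range. The log2 fold change was -0.13 (SE 0.62, 95% interval -1.55 to 1.28, adjusted p = 0.977 by edgeR) and -0.27 without attached replicate 2.

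The passenger strand of MIR29C, miR-29c-5p, ranked 170th with 157, 61.0 and 111 CPM in the attached libraries against 86.2 and 89.9 CPM in the detached ones. The detached values fell between attached replicate 2 and the other attached libraries. Its log2 fold change was -0.32 (SE 0.67, 95% interval -1.84 to 1.21, adjusted p = 0.907 by edgeR), and -0.61 (SE 0.50, adjusted p = 0.706) without attached replicate 2.

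The locus mark of MIR29B1, miR-29b-1-5p, ranked 229th with 97.1, 5.61 and 57.0 CPM in the attached libraries against 22.1 and 33.9 CPM in the detached ones. It varied most of the 7 arms, 17.3-fold from lowest to highest, since attached replicate 2 held only 37 of its counts. The means were 53.2 ± 45.9 CPM (SD, n = 3) attached and 28.0 ± 8.37 CPM (SD, n = 2) detached. The log2 fold change was -0.93 (SE 1.05, 95% interval -3.32 to 1.47, adjusted p = 0.857 by edgeR). Without attached replicate 2 it was -1.47 (SE 0.53, 95% interval -2.59 to -0.34), with an unadjusted p of 0.0137 and an adjusted p of 0.168 by edgeR, which did not pass the threshold of 0.05.

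The locus mark of MIR29B2, miR-29b-2-5p, was the rarest arm and ranked 308th, with 21.9, 4.70 and 14.9 CPM in the attached libraries against 16.2 and 21.9 CPM in the detached ones. It rested on 31 to 288 counts per library. Attached replicate 2 was again the lowest, and the other 4 libraries lay within a 1.48-fold range. The log2 fold change was 0.46 (SE 0.75, 95% interval -1.25 to 2.17, adjusted p = 0.889 by edgeR) and 0.05 without attached replicate 2.

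In the order of mean levels, some neighbours had ranges over libraries that did not overlap and others did not differ beyond their spread. The means of miR-29a-3p and miR-29b-3p differed by 1.04-fold, their ranges overlapped, and miR-29a-3p was the higher of the pair in 1 of 5 libraries, attached replicate 2. The ranges of miR-29b-3p and miR-29c-3p did not overlap (mean ratio 7.86), nor did those of miR-29c-3p and miR-29a-5p (8.42) or miR-29a-5p and miR-29c-5p (5.10). For the rarest arms the ranges overlapped across libraries, but within each of the 5 libraries miR-29c-5p exceeded miR-29b-1-5p, and miR-29b-1-5p exceeded miR-29b-2-5p.

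Of the 7 arms, 0 were called higher and 0 lower at an edgeR adjusted p under 0.05. Over all 697 tested human miRNAs the called shares were also 0% higher and 0% lower, so the arms stand beside a background without calls. DESeq2, run without the low-count filter, gave a p-value for 1916 rows. It called 12 of these higher and 0 lower, and 0 of the 7 arms. At an unadjusted p under 0.05, 0 of the 7 arms passed by edgeR, by DESeq2 or by limma-voom, against 7.03% of all tested rows by edgeR. Non-overlap between the groups was seen in 0 of 7 arms, while 14.9% of tested rows had all detached libraries above all attached ones and 14.2% had them below. Positive fold changes were found in 3 arms and negative ones in 4, with a median of -0.13 on the log2 scale against -0.04 over all tested rows.

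Leaving out attached replicate 2 raised the number of calls elsewhere but not in the family. Without it, 3.24% of 679 tested rows were called higher and 0.147% lower by edgeR, and 0 of 7 miR-29 arms were. At an unadjusted p under 0.05, 1 of 7 arms passed, miR-29b-1-5p, against 13.1% of rows. Its libraries then no longer overlapped between groups, nor did those of miR-29c-5p, both lower in detached cells, beside 21.4% of rows lower and 21.1% higher in this way. A count of 2 of 7 is near that background.

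**Figure D2:**
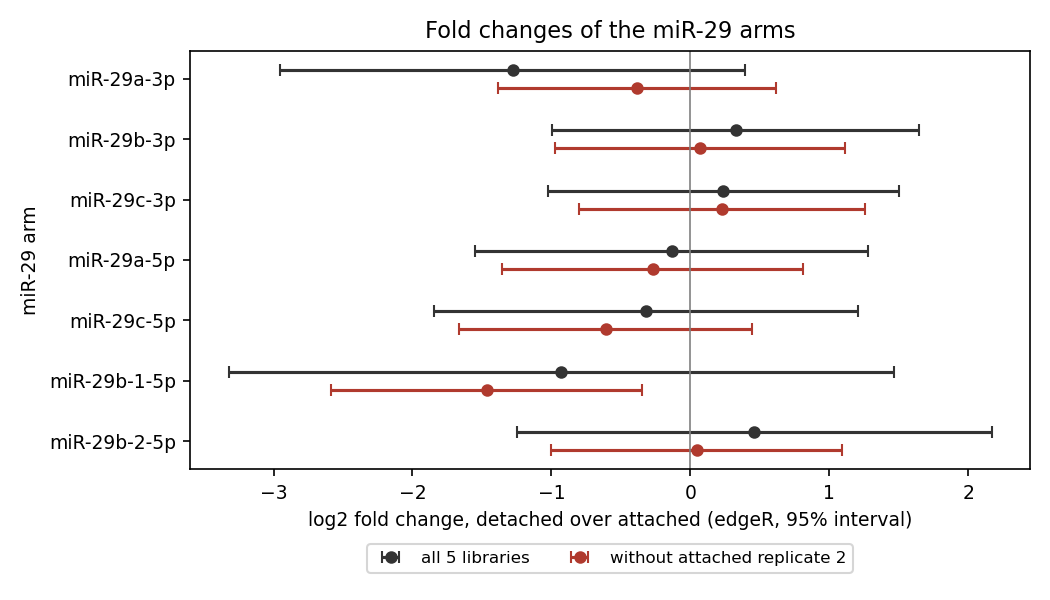
Fold change of each arm, detached over attached, on the log2 scale from edgeR, with points for the estimate and bars for the 95% interval, over all 5 libraries (black) and without attached replicate 2 (red). All black intervals cross 0, and of the red ones only that of miR-29b-1-5p, -2.59 to -0.34, does not.

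Summed, the guides took 7.62%, 8.38% and 5.90% of human miRNA counts in attached replicates 1, 2 and 3, and 7.96% and 5.67% in the detached libraries, a 1.48-fold range before TMM scaling. In TMM-scaled CPM the sum ran from 45467 in detached replicate 2 to 111988 in attached replicate 2, a 2.46-fold range. The groups overlapped on both scales, with shares of 7.30 ± 1.27% (SD, n = 3) attached and 6.81 ± 1.62% (SD, n = 2) detached. In TMM-scaled CPM the log2 ratio of the group means of the sum, detached over attached, was -0.38. It was -0.077 without attached replicate 2, -0.026 without detached replicate 2, -0.62 without attached replicate 3 and -0.84 without detached replicate 1. No test was made on this sum.

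Within the sum, miR-29a-3p made up 37.3%, 79.7% and 38.4% in attached libraries and 28.7% and 33.6% in detached libraries. For miR-29b-3p the parts were 56.2%, 16.7% and 55.9% in attached and 64.1% and 58.1% in detached libraries. The 2 guides thus changed places in attached replicate 2, and in the other 4 libraries miR-29b-3p was the larger. The part of miR-29c-3p was 6.47%, 3.57% and 5.70% in attached and 7.22% and 8.29% in detached libraries.

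**Figure D3:**
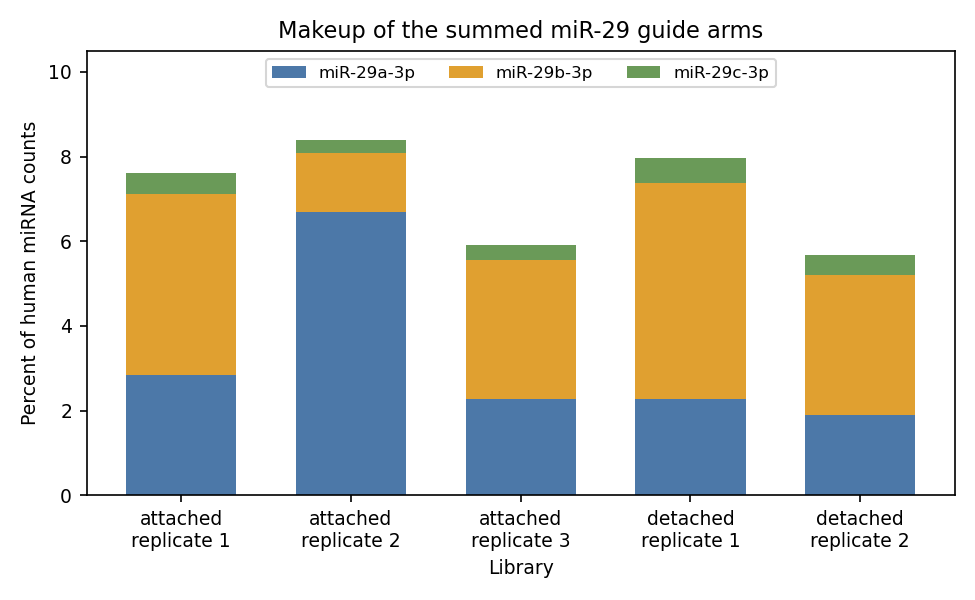
Percent of human miRNA counts taken by the 3 guide arms in each library, stacked. The stacks reach between 5.67% and 8.38%, and miR-29a-3p (blue) fills 79.7% of the stack in attached replicate 2 but 28.7% to 38.4% in the other 4 libraries.

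A ratio of arms within a library needs no scaling between libraries. There were 5.77, 22.3 and 6.75 miR-29a-3p counts per miR-29c-3p count in attached libraries and 3.98 and 4.05 in detached libraries. All attached libraries were above all detached ones, and the group means differed by 1.25 on the log2 scale. A two-sided exact permutation test, which doubles the p of 1 tail, gave p = 0.2 (0.6 after Benjamini-Hochberg adjustment over 6 tests). A p of 0.2 is the smallest that this form of the test can give for 3 against 2 libraries. Without attached replicate 2 the log2 difference was -0.64, detached minus attached, and the groups still did not overlap.

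The ratio of miR-29a-3p to miR-29b-3p showed the same order, with 0.663, 4.77 and 0.688 in attached and 0.448 and 0.577 in detached libraries. The log2 difference was -1.35, with an exact permutation p = 0.2 and an adjusted p of 0.6, and it was -0.41 without attached replicate 2. The remaining guide ratio, miR-29b-3p to miR-29c-3p, overlapped between groups at 8.70, 4.68 and 9.81 against 8.87 and 7.02.

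Such separation is common in these libraries. Among all pairs of tested human miRNAs, 29.9% had ratios that did not overlap between the groups, and 43.7% without attached replicate 2. Of the 21 pairs of miR-29 arms 3 did not overlap (14.3%), and 10 did not without attached replicate 2 (47.6%), so the family's ratios separated no more often than this background in the first case and about as often in the second. The third such pair was miR-29b-2-5p over miR-29c-5p, the passenger strands of the chromosome 1 hairpins, named after its values were seen. It gave 0.139, 0.0771 and 0.134 in attached and 0.188 and 0.244 in detached libraries, with the detached ones higher.

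The 5p arms of miR-29b show how much each locus contributed to passenger strands. Those of MIR29B2 made up 18.4% of miR-29b 5p counts in attached replicate 1 (95% Clopper-Pearson interval 16.4 to 20.6%), 45.6% in attached replicate 2 (33.5 to 58.1%) and 20.7% in attached replicate 3 (18.0 to 23.6%). In detached replicates 1 and 2 they made up 42.4% (38.4 to 46.4%) and 39.2% (35.7 to 42.9%). The MIR29B1 arm was the more counted of the pair in every library, least so in attached replicate 2, whose value rests on 31 of 68 counts. These intervals cover counting error only.

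The attached mean was 28.2 ± 15.1% (SD, n = 3) and the detached mean 40.8 ± 2.21% (SD, n = 2), a difference of 12.6 percentage points within the attached spread (two-sided exact permutation p = 0.6, adjusted p = 0.72). Without attached replicate 2 the difference was 21.2 points and the groups did not overlap, with an exact permutation p = 0.333, the smallest p for 2 against 2 libraries. Ratios of 43.7% of all pairs of tested human miRNAs did not overlap in that setting either. The difference in the MIR29B2 share was 7.66 points without attached replicate 1 and 8.79 points without attached replicate 3. The size of the difference thus depended on which attached library was left out, and the interval of attached replicate 2 reached over both detached values.

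**Figure D4:**
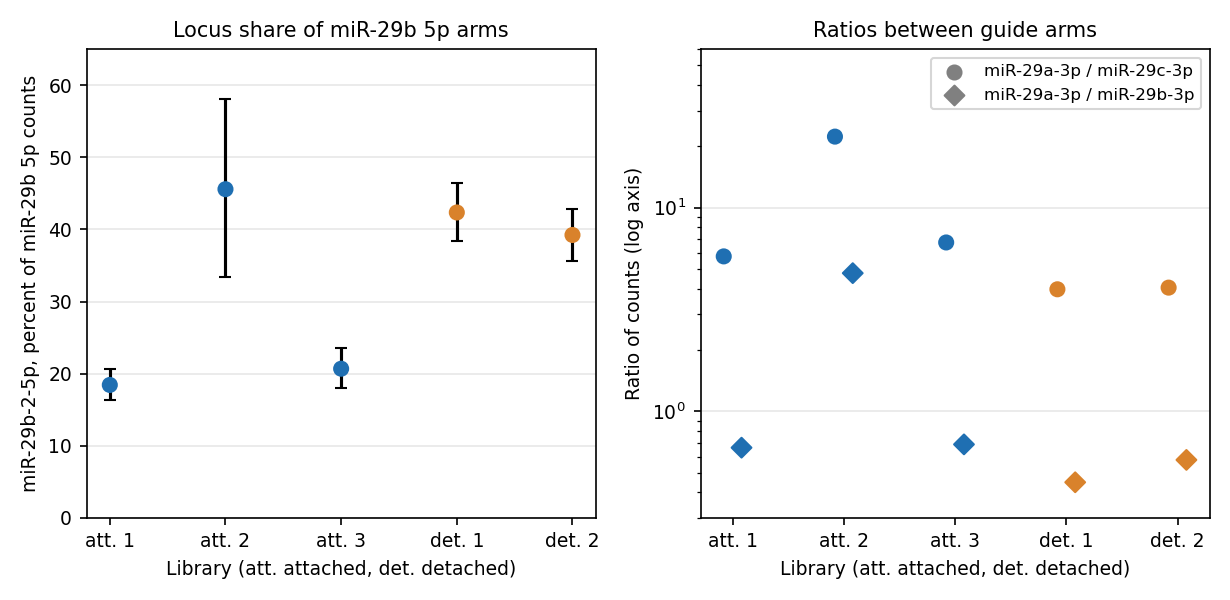
Left, percent of miR-29b 5p counts that are miR-29b-2-5p in each library, with 95% Clopper-Pearson bars; attached replicate 2 at 45.6% lies with the detached libraries and its bar is the widest. Right, counts of miR-29a-3p per count of miR-29c-3p (circles) and of miR-29b-3p (diamonds) on a log axis; attached libraries are blue, detached ones orange, and the highest of each ratio is attached replicate 2.

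Guide strands made up nearly all counts of miR-29a, miR-29b and miR-29c. The 3p share of miR-29a counts was 98.3%, 99.5% and 96.9% in attached and 97.2% and 98.0% in detached libraries (exact permutation p = 0.8). For miR-29b, with both hairpins summed, it was 99.7% to 99.9% in every library (exact permutation p = 0.6). For miR-29c it was 97.1%, 98.5% and 96.4% in attached and 98.5% and 97.7% in detached libraries (exact permutation p = 0.4). After adjustment over the 6 tests these p-values were 0.8, 0.72 and 0.72, and the groups overlapped in each case. Without attached replicate 2 the detached means differed from the attached ones by 0.035, 0.11 and 1.37 percentage points for miR-29a, miR-29b and miR-29c, with the direction turned for miR-29a from -0.62 over all libraries. The groups then no longer overlapped for miR-29b and miR-29c, each with an exact permutation p = 0.333, the smallest p for 2 against 2 libraries. In that setting 43.7% of all pairs of tested human miRNAs had ratios that did not overlap.

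The arms of 1 hairpin did not keep a fixed ratio. There were 56.2, 211 and 30.9 counts of miR-29a-3p per count of miR-29a-5p in attached and 34.9 and 48.2 in detached libraries, so the excess of miR-29a-3p in attached replicate 2 was not matched by its passenger strand. The background was 178 pairs of tested 3p and 5p arms matched by name, which can join products of several hairpins. Of these, 59 departed in attached replicate 2 from the other 4 libraries at least as far as the 2.35 log2 units of MIR29A. The miR-29c ratio was 33.1, 65.5 and 26.6 in attached and 67.1 and 41.9 in detached libraries, and 139 of those 178 pairs departed at least as far as MIR29C.

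How far each arm in attached replicate 2 stood from the mean of the other 4 libraries was set beside all tested rows. It was 2.06 log2 units higher for miR-29a-3p, and 190 of the 697 tested rows, 27.3%, lay at least as far. The largest departure in the family was -2.97 for miR-29b-1-5p, which 86 rows, 12.3%, equalled or passed. The other arms departed by -1.93 (miR-29b-2-5p), -0.96 (miR-29b-3p), -0.82 (miR-29c-5p), -0.29 (miR-29a-5p) and -0.10 (miR-29c-3p). The quartiles of all rows were -1.55 and 0.92, so the family's spread in that library was of a size many rows showed.

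Arms of 1 hairpin or cluster varied in how closely they followed each other over the 5 libraries. As a description over 5 points that share library depth and the same outlying library, Pearson's r of log2 CPM was -0.06 between miR-29a-3p and miR-29a-5p and 0.14 between miR-29c-3p and miR-29c-5p. Between the 5p arms of a cluster it was 0.28 on chromosome 7 (miR-29a-5p and miR-29b-1-5p) and 0.77 on chromosome 1 (miR-29c-5p and miR-29b-2-5p). It was 0.70 between miR-29b-3p and miR-29c-3p and -0.48 between miR-29a-3p and miR-29b-3p. The highest r in the family, 0.96, joined miR-29b-1-5p and miR-29c-5p, which come from different chromosomes, and the lowest, -0.89, miR-29a-3p and miR-29b-2-5p.

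The miRNAs outside the family with the pattern most like each guide were ranked by the same r. For miR-29a-3p they were miR-30a-5p (r = 0.995, mean level 1634 CPM), miR-643 (0.989) and miR-3174 (0.989). Like the guide, miR-30a-5p was highest in attached replicate 2, at 3745 CPM, with 863 to 1329 CPM elsewhere. For miR-29b-3p they were miR-142-5p (0.978), miR-340-5p (0.975, mean level 167 CPM) and miR-6824-3p (0.971), and miR-340-5p was likewise lowest in attached replicate 2 at 70.9 CPM. For miR-29c-3p they were miR-5095 (0.956), miR-374a-3p (0.942, mean level 76.5 CPM) and miR-6730-5p (0.909). Of these 9 miRNAs, miR-643, miR-3174, miR-142-5p, miR-6824-3p, miR-5095 and miR-6730-5p had mean levels between 0.746 and 3.45 CPM, where a few counts set the value.

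Other miRNAs linked to matrix and TGF-beta signalling were looked at beside the family. Of 16 listed, 12 passed the low-count filter and 0 were called by edgeR, with 6 positive and 6 negative fold changes and a median of -0.03 against -0.04 over all tested rows. At an unadjusted p under 0.05 by edgeR, 1 of these 12 passed, beside 7.03% of all tested rows. It was miR-145-5p, a miRNA of smooth muscle and mesenchymal cells that is also 1 of the fibroblast markers above. Its level was 0.958, 0.911 and 0.340 CPM in the attached libraries against 17.0 and 6.16 CPM in the detached ones. The groups did not overlap, as was so for 14.9% of all tested rows with the detached libraries higher. The log2 fold change of miR-145-5p was 3.98 (SE 0.78, adjusted p = 0.146 by edgeR). The next smallest p-values belonged to miR-24-3p, at -2.10 (SE 1.09, adjusted p = 0.707), and miR-200b-3p, an epithelial miRNA that represses ZEB factors, at 1.01 (SE 0.68, adjusted p = 0.765). For miR-24-3p attached replicate 2 held 6848 CPM and the other 4 libraries 640 to 834 CPM.

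Of 19 other miRNAs described as repressed by MYC, 18 were tested and 0 were called by edgeR, with 10 positive and 8 negative fold changes and a median of 0.05. At an unadjusted p under 0.05 by edgeR 0 passed, against 7.03% of all tested rows. The smallest p-values were those of miR-15a-5p, which targets BCL2, with a log2 fold change of 1.74 (SE 0.92, adjusted p = 0.707), miR-146a-5p at -2.61 (SE 1.45, adjusted p = 0.735) and miR-30b-5p at 1.00 (SE 0.60, adjusted p = 0.735). For miR-15a-5p the level was 1573, 149 and 1442 CPM in the attached libraries against 2167 and 4903 CPM in the detached ones. For miR-30b-5p it was 692, 1199 and 1818 CPM against 2181 and 2757 CPM. Neither overlapped between groups, as was so for 14.9% of all tested rows with the detached libraries higher. For miR-146a-5p the groups overlapped, with 5.14, 232 and 50.1 CPM attached against 25.7 and 5.55 CPM detached, and attached replicate 2 was the highest.

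In the authors' deposited table, which was fitted by them, the log2 fold changes had the same signs as those above. For the guides, the authors' deposited table gives -1.04 (SE 0.75) for miR-29a-3p, 0.26 (SE 0.75) for miR-29b-3p and 0.21 (SE 0.70) for miR-29c-3p. For the 5p arms, the authors' deposited table gives -0.13 (SE 0.73) for miR-29a-5p, -0.36 (SE 0.73) for miR-29c-5p, -0.91 (SE 0.87) for miR-29b-1-5p and 0.29 (SE 0.79) for miR-29b-2-5p. The adjusted p in the authors' deposited table is 0.998 for each of the 7 arms. All 7 edgeR intervals above included 0 and reached beyond 1 log2 unit in at least 1 direction, so a p that missed the threshold here does not show that the arms had equal levels.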

How the data were processed

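Per the labels' protocols, libraries were built from the 18 to 24 nt fraction of 50 µg of TRIzol RNA, purified on a gel. The deposited tables hold raw read counts for 49965 named small RNAs per library, and 5 summary rows that total 0. The submitters' processing notes name build hg38 and DESeq2; how reads were aligned and counted, and shared between names they match equally, is not given in the sources used here. The authors' deposited comparison table gives log2 fold changes with standard errors and p-values, raw and adjusted; its 5 columns of per-sample values were not used. The 64 miR-29 rows of other species total 0 counts, and the row p-hsa-miR-29, with 1 to 10 counts was not a member.

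The 2565 human miRNA rows were tested with edgeR 4.0.16 (TMM, filterByExpr with minimum count 10 and minimum total 15, glmQLFTest, Benjamini-Hochberg over 697 rows) in R 4.3.3, with limma 3.58.1 and DESeq2 1.42.0 as alternatives. Intervals of fold changes use the fit's degrees of freedom. Shares and ratios were compared by exact permutation over libraries. Replicates of a group differed well beyond sampling noise, with a chi-square of 606 to 3834 for each degree of freedom. The edgeR step was tested on simulated data. Depth was 8805009 to 15793173 human miRNA counts, at which 3 counts, the limit that a count of 0 allows, are 0.190 to 0.341 CPM. Named miRNAs were all 7 arms, the 3 smallest p-values of each of 2 lists, and the 3 miRNAs most correlated with each guide over log2 CPM with a prior count of 2. The members and lists were chosen with earlier results of these data known. Alternatives changed scaling, filter, tool, replicates and the summing of miR-29a-3p with miR-29c-3p.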

Additional observations from a re-analysis of the deposited data

How the results depend on the processing

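Of 105 alternative fold changes of the 7 arms, 98 kept their direction, 7 reversed and 0 passed the adjusted threshold. The sum of miR-29a-3p and miR-29c-3p was entered for each of these arms and is among the reversals for miR-29c-3p. The cause of the other reversals was not tested. Scaling to the total without TMM, which moved the median of all rows from -0.04 to 0.20, gave 0.016 for miR-29a-5p. Deviations from the group means correlated at -0.20 and -0.18 between libraries of the same replicate number. With 2 detached libraries these deviations mirror each other, so the correlations cannot show whether replicate numbers pair the libraries. The replicate block gave 0.21 for miR-29b-1-5p, with 0 of 7 arms and 0 rows called. The sum of miR-29a-3p and miR-29c-3p gave -1.24, a value set by the far more abundant miR-29a-3p. Leaving out 1 library each gave -1.69 to -0.38 for miR-29a-3p. That range was -0.71 to 0.35 for miR-29a-5p (highest without detached replicate 2), -0.18 to 0.77 for miR-29b-3p and -0.052 to 0.57 for miR-29c-3p (both lowest without detached replicate 1), -0.61 to 0.029 for miR-29c-5p (highest without attached replicate 1), -1.47 to -0.16 for miR-29b-1-5p and 0.046 to 0.95 for miR-29b-2-5p. Human miRNAs called higher numbered 12 of 1916 tested rows by DESeq2 and 13 of 697 by limma-voom with library quality weights. They numbered 14 of 1918 without the low-count filter and 25 of 1874 by DESeq2 with attached replicate 2 left out. Leaving out 1 attached library gave 0 to 22, of 666 to 679 tested rows. Those called lower numbered 5 without the filter, 5 by DESeq2 with attached replicate 2 left out, and 0 to 1. Leaving out 1 library, the 3p share of miR-29a, detached minus attached, differed by -1.30 to 0.035 percentage points and that of miR-29b by -0.023 to 0.11. The stricter filter (100 CPM in 2 libraries) left 5 arms tested. Depth limited miR-29b-2-5p and miR-29b-1-5p most, which held 31 and 37 counts in attached replicate 2.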
